A study of Rattus norvegicus with 44 samples.

Results

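The kidneys of the 11 Vehicle animals of a series of 44 are described here: how strongly each nephron segment and cell type was represented in their RNA, and which genes for injury, scarring, immune cells, tubular transport and mitochondria moved together from animal to animal. Every Vehicle animal was included, as labelled, and no treated animal was used. The animals were male obese ZSF1 rats (ZSF1 OB), which become obese and diabetic and lose kidney function as they age. All carried a telemetry device, and Vehicle animals were fed without drug for 6 months from 22 weeks of age. A frozen piece of kidney gave 1 mRNA library per animal. No lean rat is among the samples, so the levels below are those of the diseased strain alone, and a marker level says nothing of how far it lies from that of a healthy rat. Levels are given in FPKM, the sequenced fragments of a gene divided by its transcript length and by the library's mapped total. Dividing by length lets genes be set side by side. Between animals the values are less secure, because an FPKM is a share of its library and depends on the other genes in it. Mitochondrial transcripts took 19.8 to 36.7% of FPKM, and median-of-ratios size factors ran from 0.946 to 1.12. Results after that scaling are therefore given as well. In a piece of whole kidney, fewer cells of a type and less RNA per cell cannot be told apart.

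The kidney filters blood in the glomerulus, where podocytes and fenestrated endothelium form the filter, and recovers most of the filtrate in the proximal tubule. Proximal tubule cells draw their energy mainly from fatty acid oxidation, make glucose, and depend on a dense set of mitochondria. The thick ascending limb, distal convoluted tubule and collecting duct then adjust salt, acid and water. When tubules are damaged, their cells reduce transporters and express genes such as Havcr1 (KIM-1) and Lcn2 (NGAL), leukocytes enter the interstitium, and fibroblasts lay down collagen.

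Most listed genes were detected. Of 476 measured members of 37 lists of cell types and processes, 438 had an FPKM above 1 in at least 9 of the 11 animals. Of all 32883 entries 12541 did. Many lists hold genes of general processes, so that count does not speak to the tissue, and the segment markers are given below. Transcripts of the 13 mitochondrially encoded genes took 19.8 to 36.7% of FPKM, and 12938 to 13407 genes exceeded an FPKM of 1 per library. Library 1004 stood apart: its mean correlation with the other libraries was 0.945, against 0.975 for the next lowest, and it carried 86.1% of the weight of the first principal component, which held 36.5% of the variance. It had the highest mitochondrial share, the highest mean of the inner medulla markers, the fewest detected genes and the lowest Havcr1, Ptprc and Sdha. Library 1003 carried 51.0% of the weight of the second component (17.7% of the variance) and had the highest Havcr1 and Col1a1 and the lowest Slc34a1. The main results on co-variation are therefore also given without these animals.

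Proximal tubule transcripts dominated the segment markers. The summed level of its 20 listed genes ran from 4339 to 7155 FPKM with a median of 6489. Ggt1, a brush border peptidase, had 648 FPKM in the lowest animal, 889 in the median and 967 in the highest. Slc34a1, the main phosphate cotransporter of the brush border, had a median of 969 FPKM (578 to 1127). The organ anion transporters Slc22a8 and Slc22a6 followed with medians of 361 and 294 FPKM. Slc5a2, the glucose cotransporter SGLT2, had 125, 172 and 194 FPKM in the lowest, median and highest animal. The endocytic receptor Lrp2 (megalin) was steadier at 66.7, 88.7 and 100 FPKM. Thus, among the genes named for this segment, abundant brush border proteins and anion transporters stood above the endocytic receptor, and Slc5a8, a monocarboxylate transporter, was far lower with a median of 16.1 FPKM. Slc7a13, an amino acid transporter of the straight segment, varied widely and ran from 33.6 to 238 FPKM around a median of 137.

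Markers of the later segments were lower in sum but clearly present. Umod (uromodulin), a urinary protein made in the thick ascending limb, had 593, 957 and 1490 FPKM in the lowest, median and highest animal. Slc12a1, the furosemide-sensitive cotransporter of the same segment, had a median of 182 FPKM (113 to 200). Egf, the growth factor made in this limb and in the distal tubule, was lower at 39.3 FPKM (19.3 to 57.5) and varied more. Slc12a3, the thiazide-sensitive cotransporter of the distal convoluted tubule, was among the steadiest at 163 FPKM (136 to 185). Calb1 (calbindin), of the same part of the nephron, ran from 53.0 to 148 FPKM. Pvalb, a marker of the early distal convoluted tubule in mouse, was listed at 0 in the median animal. In the collecting duct, Hsd11b2, which protects the mineralocorticoid receptor from glucocorticoids, had 252 FPKM (220 to 281) and the vasopressin-regulated water channel Aqp2 had 79.4 FPKM (56.0 to 96.3). Intercalated cells were marked by the bicarbonate exchangers Slc4a1 (median 34 FPKM) and Slc26a4 (pendrin, 25.6 FPKM) and by the proton pump subunit Atp6v1b1, which ran from 10.1 to 48.0 FPKM.

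Glomerular and vascular genes were lower still. Podxl (podocalyxin), the sialoprotein that coats podocyte foot processes, had 17.8, 24.3 and 27 FPKM in the lowest, median and highest animal, and Nphs1 (nephrin), of the slit diaphragm, had 4.33, 6.59 and 9.72 FPKM. Of 10 podocyte genes, 9 passed the filter on low values. The endothelial genes Eng and Emcn had medians of 87.6 and 37.5 FPKM, and the summed endothelial list varied least of the 19 plotted lists, from 186 to 228 FPKM. Pdgfrb, the receptor that marks pericytes and mesangial cells, had a median of 43.3 FPKM, and Acta2, smooth muscle actin, had 53.4 FPKM (41.3 to 89.2).

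**Figure D1:**
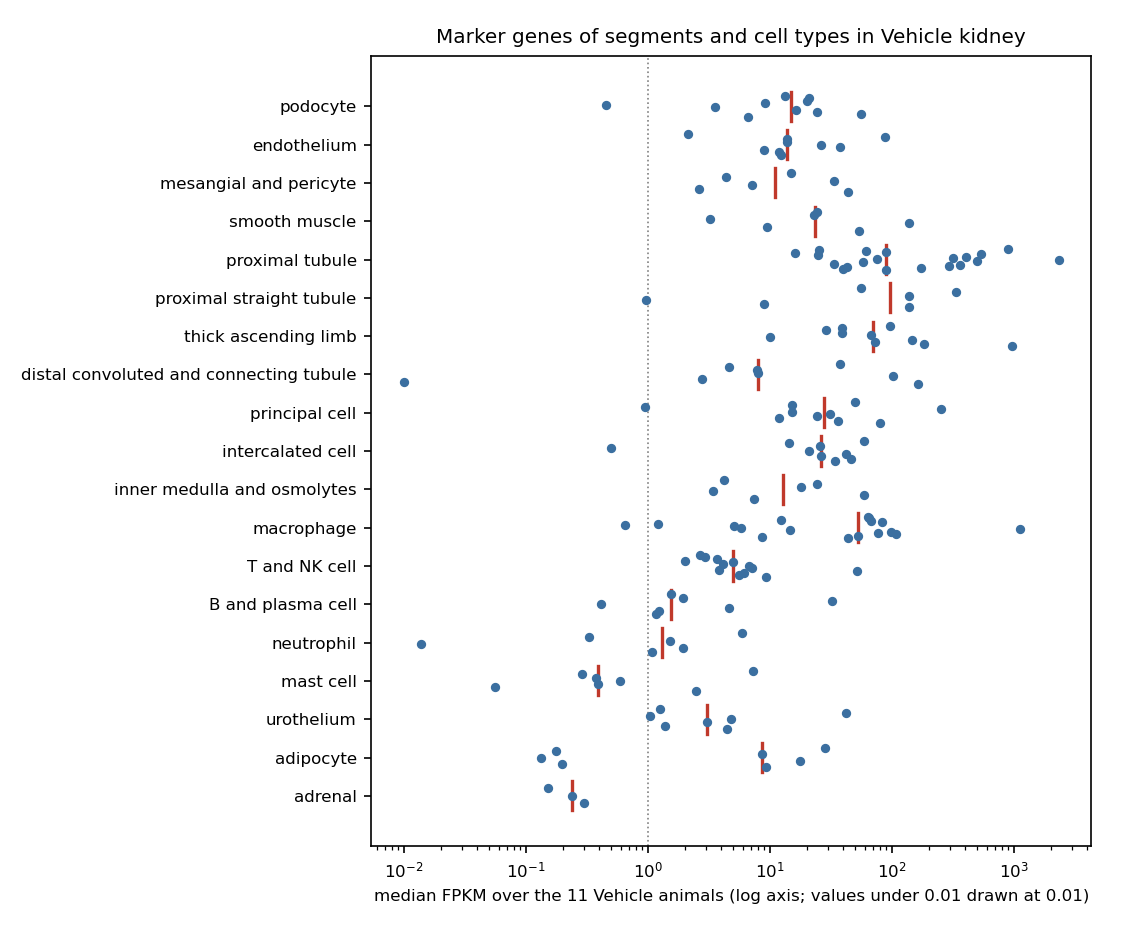
Median FPKM over the 11 Vehicle animals of each measured marker gene (points; log axis) by segment or cell type, with the median over the genes of a list as a red line and the filter of 1 FPKM as a dotted line. Proximal tubule, straight tubule, thick ascending limb and macrophage genes lie highest, and mast cell and adrenal genes lie mostly under 1 FPKM.

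Immune transcripts were led by macrophage and antigen presentation genes. Lyz2 (lysozyme), the highest macrophage marker, had 572, 1114 and 1530 FPKM in the lowest, median and highest animal. C1qa, a chain of the complement starter C1q that macrophages make, had a median of 109 FPKM (83.5 to 165), and Cd68, a lysosomal macrophage protein, had 43.2 FPKM (27.8 to 66.3). Cd74, the invariant chain of MHC class II, was among the 20 most abundant transcripts at 2311 FPKM (1728 to 2789). T cells were present at a lower level: Cd3e, part of the T cell receptor complex, had a median of 9.27 FPKM (6.80 to 12.3). Jchain, which joins secreted antibody chains in plasma cells, had a median of 32.5 FPKM and a wide range of 13.1 to 63.9. Neutrophil genes summed to 6.37 to 21.6 FPKM with 3 of 6 genes past the filter, and 2 of 7 mast cell genes passed. Of 3 measured adrenal genes none passed, and the urothelial list, for the lining of the renal pelvis, summed to 38.6 to 106 FPKM.

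Genes of tubular injury and matrix were abundant in every animal. Spp1 (osteopontin), a secreted phosphoprotein made by tubule cells, had 3126, 3996 and 6490 FPKM in the lowest, median and highest animal. Clu (clusterin), a secreted chaperone, had 638, 1199 and 1980 FPKM. Lcn2, the iron-siderophore binding lipocalin measured in urine as NGAL, had 82.9, 128 and 228 FPKM, and Havcr1, the receptor that lets tubule cells take up dead cells, had 21.5, 34.2 and 51.9 FPKM. Krt20, a keratin of severely injured tubules in mouse, was listed at 0 in the median animal. Among matrix genes Sparc had a median of 417 FPKM, the proteoglycan Bgn 299, the basement membrane collagen Col4a1 157 and the fibrillar collagens Col3a1 and Col1a1 99.2 and 55.1 FPKM.

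Among mitochondrial and metabolic genes, nuclear encoded subunits of the respiratory chain were high and steady. Their summed level ran from 7838 to 9615 FPKM, and the median SD of its members on the log2 scale was 0.13, against 0.22 for all 12541 tested genes. Mitochondrially encoded transcripts varied more, with a median SD of 0.37. Pck1, the enzyme that commits carbon to glucose synthesis, had 655, 1436 and 1671 FPKM in the lowest, median and highest animal. Acadm, the medium-chain acyl-CoA dehydrogenase of fatty acid oxidation, had 94.6, 167 and 215 FPKM. Sdha, the catalytic subunit of succinate dehydrogenase, had 137, 195 and 255 FPKM, whereas Cs (citrate synthase) stayed between 62.4 and 82.5 FPKM.

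The animals differed modestly in most genes. Of 11877 genes above 1 FPKM in every animal, 3011 (25.4%) had a highest value more than 2 times the lowest. The lists with the largest median SD on the log2 scale, among those with at least 5 tested genes, were urothelium (0.68) and the clock genes (0.47). The largest spread among genes above 1 FPKM in every animal belonged to Alb (albumin), with 1.09, 9.60 and 94.7 FPKM in the lowest, median and highest animal. Hp (haptoglobin, a plasma protein that binds haemoglobin) was also among them, with 1.03, 4.05 and 16.3 FPKM, and was chosen for mention after its values were seen. Without animal 1004 the median SD of all tested genes was 0.19.

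To ask which processes moved together, 5 anchor genes were taken: Havcr1 for tubular injury, Col1a1 (a chain of type I collagen) for scarring, Ptprc (CD45, on all leukocytes) for immune cells, Slc34a1 for the proximal tubule and Sdha for mitochondria. Havcr1 and Ptprc rose together, with Pearson's r = 0.86 over 11 animals (two-sided permutation test with 100000 resamples, p = 0.00114, adjusted p = 0.0114 over 10 pairs by the Benjamini-Hochberg method). Ptprc had 7.76, 11.9 and 16.6 FPKM in its lowest, median and highest animal. Animal 1004 was lowest in both genes, and 1003 was highest in Havcr1 and next to highest in Ptprc. Spearman's rho of this pair was 0.62 (permutation, adjusted p = 0.112), and without the 2 animals farthest from the median Havcr1 level, r was 0.63 (permutation, adjusted p = 0.153), so that the call rests on those animals.

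Col1a1, with 37.5, 55.1 and 82.5 FPKM in its lowest, median and highest animal, followed Ptprc in rank. Spearman's rho was 0.84 (permutation, adjusted p = 0.0229 over 10 pairs), with Pearson's r = 0.68 (permutation, adjusted p = 0.0729). Without the 2 animals farthest from the median Col1a1 level, rho was 0.80 (permutation, adjusted p = 0.137) and r was 0.61. Col1a1 and Slc34a1 went in opposite directions with r = -0.71 (permutation, adjusted p = 0.0717), rho = -0.65 (adjusted p = 0.112) and r = -0.52 without the 2 animals farthest in Col1a1, which does not pass the threshold. Slc34a1 and Sdha had r = 0.57 (permutation, adjusted p = 0.150), rho = 0.60 (adjusted p = 0.112) and r = 0.79 without the 2 animals farthest in Slc34a1. Havcr1 and Col1a1 had r = 0.58 (permutation, adjusted p = 0.150) and rho = 0.60 (adjusted p = 0.112), with r = 0.54 without the 2 farthest animals. In the other 5 pairs r lay between -0.48 and 0.27 and no adjusted permutation p was under 0.2.

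The picture of the pairs depended on animals 1003 and 1004. Without 1004, 6 of 10 pairs passed by Pearson's r. They were Havcr1 with Slc34a1 (r = -0.85), Col1a1 with Ptprc (r = 0.84), Ptprc with Slc34a1 (r = -0.80), Havcr1 with Ptprc (r = 0.75), Col1a1 with Slc34a1 (r = -0.74) and Havcr1 with Col1a1 (r = 0.73). By Spearman's rho 3 of the 10 passed, Havcr1 with Slc34a1, Col1a1 with Ptprc and Col1a1 with Slc34a1. By Pearson's r injury, scarring and immune anchors then rose together and the proximal tubule anchor fell as they rose. Without 1003, no pair passed, although Havcr1 with Ptprc kept r = 0.82 (permutation, adjusted p = 0.0635). Without both, none of 10 pairs passed, and r was -0.73 for Havcr1 with Slc34a1, 0.77 for Col1a1 with Ptprc and -0.80 for Ptprc with Slc34a1 over 9 animals. The permutation p of each of these 3 pairs, adjusted over the 10, was then 0.0815.

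**Figure D2:**
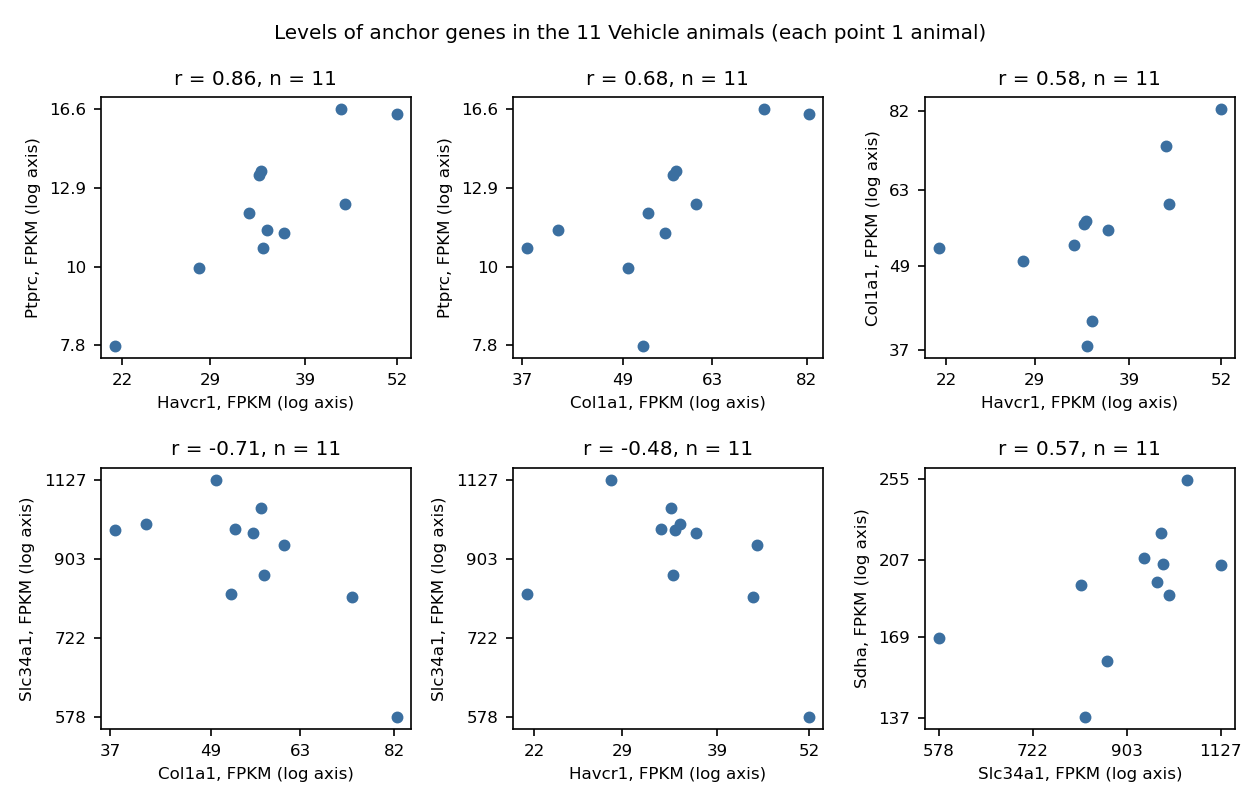
FPKM of anchor genes in the 11 Vehicle animals (log axes), each point 1 animal, with Pearson's r of the log2 levels above each panel. Ptprc rises with Havcr1 (r = 0.86) and with Col1a1 (r = 0.68), and the animal of lowest Slc34a1 has the highest Col1a1 and Havcr1.

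A second gene for each process showed how far a single anchor stands for its process. These 5 pairs were looked at after the first results. Col3a1 followed Col1a1 closely (r = 0.92, rho = 0.87, permutation, adjusted p = 2e-04 for r over 5 pairs), also without the 2 farthest animals (r = 0.82) and without 1003 (r = 0.87). Lrp2 followed Slc34a1 (r = 0.76, rho = 0.70, permutation, adjusted p = 0.0153 for r). Without the 2 animals farthest in Slc34a1 that r was 0.69 (permutation, adjusted p = 0.110), and without 1003 it was 0.64 (permutation, adjusted p = 0.112), so that it no longer passed in either case. Clu followed Havcr1 with r = 0.32 (permutation, adjusted p = 0.556) over all animals and r = 0.76 (permutation, adjusted p = 0.0230) without 1004. Laptm5, a lysosomal protein of leukocytes, had r = 0.24 with Ptprc (permutation, adjusted p = 0.589) and 0.61 without 1004. Cs had r = 0.11 with Sdha (permutation, adjusted p = 0.742), so no co-variation of these 2 citric acid cycle enzymes was detected.

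Among the second genes, Clu and Laptm5 rose together (r = 0.93, rho = 0.92, permutation, adjusted p = 4e-04 over 10 pairs), and both were lower where Lrp2 was higher (r = -0.78 for Clu and -0.77 for Laptm5, permutation, adjusted p = 0.0154 and 0.0198). Clu also rose with Col3a1 (r = 0.75, permutation, adjusted p = 0.0198). Clu with Laptm5 passed without 1003 (r = 0.93), without 1004 (r = 0.92), without both (r = 0.92) and without the 2 animals farthest in Clu (r = 0.86, permutation, adjusted p = 0.0222). By Pearson's r the other 3 pairs passed without 1004 but not without 1003, without both or without the 2 animals farthest in the gene named first. Like the first set, these pairs come from the same 11 animals, so they are not separate evidence.

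The genes that moved with each anchor were then found by fitting every tested gene on the log2 level of the anchor. A slope is the change in a gene's log2(FPKM + 0.1) per log2 unit of the anchor, and a gene was called at an adjusted p under 0.05 over 12540 genes. The 5 fits use the same animals, and their counts cannot be set against each other as separate experiments. The median gene had a slope of 0.16 on Havcr1, 0.19 on Col1a1, 0.17 on Ptprc, -0.18 on Slc34a1 and 0.10 on Sdha, and within 0.02 of 0 on each after median-of-ratios scaling. The slopes of single genes below are tested against 0 and include that shift.

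Matrix, macrophage and injury genes moved with Col1a1. In all, 291 genes rose with it (2.32% of those tested) and 33 fell (0.263%). Of 43 tested genes of scarring and matrix, 17 rose and none fell, with a median r of 0.78 against 0.30 for all genes. Mmp2, a gelatinase that remodels matrix, had 23.6, 30.9 and 45.0 FPKM in the lowest, median and highest animal and a slope of 0.85 (SE 0.10, adjusted p = 0.0127). Its activator Mmp14 ran from 30.7 to 65.1 FPKM (slope 0.86, adjusted p = 0.0135), and Bgn, with 233, 299 and 376 FPKM, had a smaller slope of 0.57 (SE 0.09, adjusted p = 0.0138). The matrix genes were thus joined by the enzymes that cut them, and Fn1, Fbn1, Sparc, Postn and 5 collagens beside Col3a1 were also among the 17.

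Of 16 macrophage genes, 6 rose with Col1a1, with a median r of 0.77. They included C1qc and C1qa, chains of C1q, with slopes of 0.85 (SE 0.12) and 0.81 (SE 0.12), both at an adjusted p of 0.0135. Tyrobp, a signalling adaptor of myeloid cells, had 59.7, 82.2 and 118 FPKM and a slope of 0.73 (SE 0.10, adjusted p = 0.0135). Gpnmb, a glycoprotein of lipid-laden macrophages, was not on a list but was among the genes of largest t, with 42.7, 65 and 116 FPKM and a slope of 1.09 (SE 0.14, adjusted p = 0.0130). The complement component C2 had a slope of 0.93 (SE 0.12, adjusted p = 0.0135).

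Of 24 tested injury genes, 8 rose with Col1a1. Clu had a slope of 1.17 (SE 0.22, adjusted p = 0.0234), steeper than Vim (vimentin, a filament protein of mesenchyme and of dedifferentiated tubules), which had 160, 200 and 355 FPKM and a slope of 0.81 (SE 0.16, adjusted p = 0.0270). Cd44, a hyaluronan receptor, and Anxa2, a membrane-binding annexin, also rose (slopes 0.69 and 0.65). In the other direction, 3 of 20 proximal tubule genes fell as Col1a1 rose. Miox, the kidney enzyme that opens the inositol ring, had 243, 408 and 510 FPKM and a slope of -0.89 (SE 0.14, adjusted p = 0.0135). Ggt1 and Slc22a6 had slopes of -0.53 and -0.57 (adjusted p = 0.0450 and 0.0494). Slc6a18, an amino acid transporter of the straight segment, had a slope of -0.67 (SE 0.11, adjusted p = 0.0172). Cyp4b1, listed with the proximal tubule, went the other way with a slope of 0.82 (adjusted p = 0.0199).

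The number of Col1a1 calls depended on single animals and on the scaling. Without 1003 limma called none (1022 genes had an unadjusted p under 0.05), without 1008 none (2142), without 1007 27 genes, and after median-of-ratios scaling none (1721), against 1441 genes called without 1004. Without mitochondrial transcripts 112 genes rose and 102 fell. The median r of the matrix genes stayed positive in these settings: 0.71 without 1003, 0.86 without 1004 and 0.66 after scaling. Without 1004, 29 of the 43 matrix genes, 17 of the 24 injury genes and 14 of the 16 macrophage genes rose with Col1a1.

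**Figure D3:**
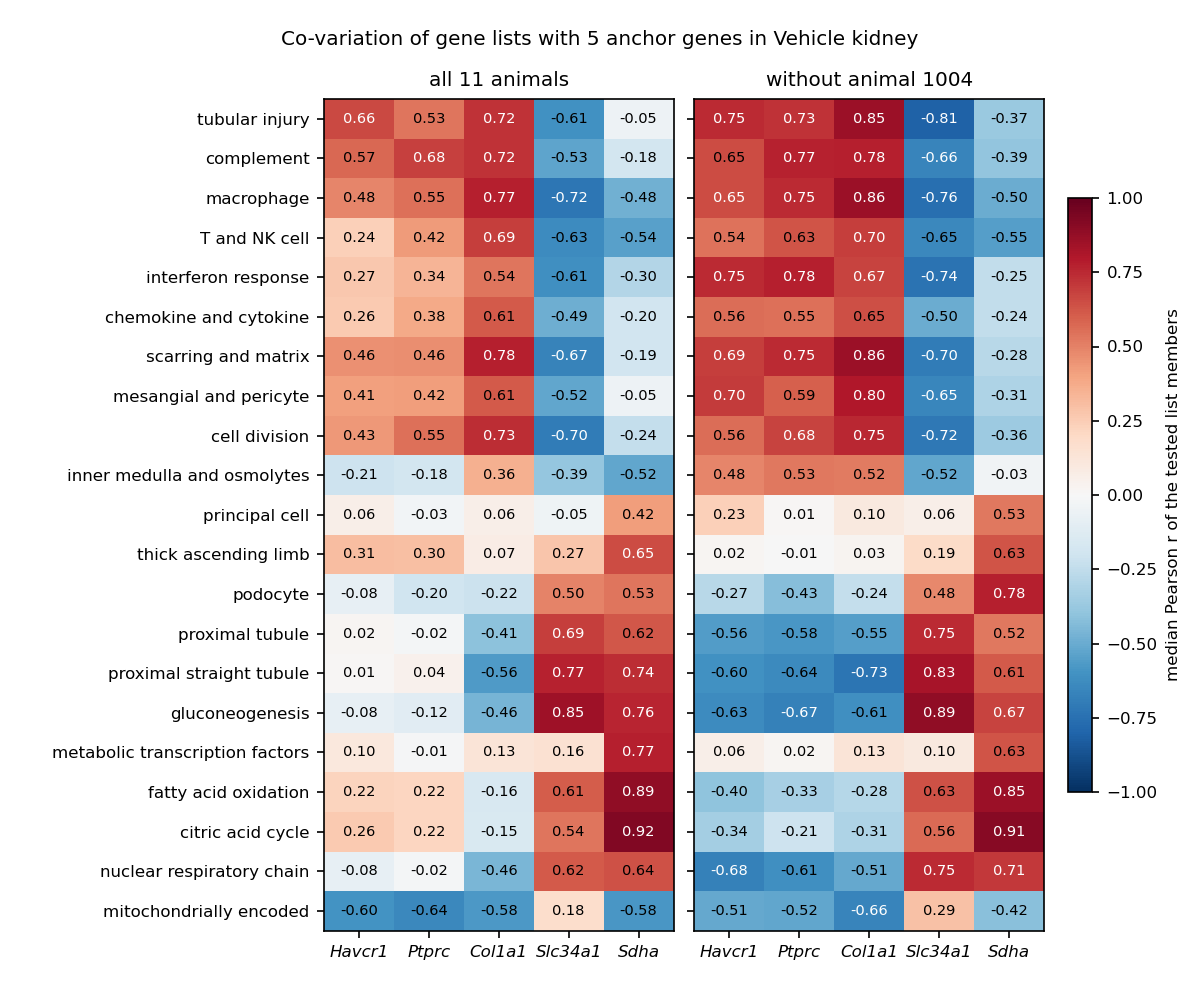
Median Pearson's r of the tested members of 21 lists (rows) with each anchor gene (columns), over all 11 animals (left) and without animal 1004 (right). Without 1004, the median r of the tubular injury list with Slc34a1 is -0.81 and that of the scarring and matrix list with Col1a1 is 0.86.

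With Havcr1, 728 genes rose (5.81%) and 10 fell (0.0797%). Of the 24 tested injury genes, 8 rose and none fell, with a median r of 0.66 against 0.27 for all genes. Cp (ceruloplasmin, a copper-carrying ferroxidase) had 64.7, 97.9 and 146 FPKM in the lowest, median and highest animal and a slope of 0.83 (SE 0.13, adjusted p = 0.0164). Anxa1, an annexin that damps inflammation, had 102, 156 and 270 FPKM and a slope of 1.02 (SE 0.17, adjusted p = 0.0164). Fgb, the fibrinogen beta chain, which injured tubules express, had a slope of 0.93 (SE 0.22, adjusted p = 0.0303). Cd24, a surface protein of tubular progenitor-like cells, was high throughout (274 to 581 FPKM) with a slope of 0.77 (SE 0.15, adjusted p = 0.0214).

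Genes that were on no list were among the closest to Havcr1. Klf4, a transcription factor of epithelial differentiation, had 6.18, 14.4 and 21.1 FPKM and a slope of 1.26 (SE 0.16, adjusted p = 0.0164). Hmga1, a chromatin protein of dividing and dedifferentiated cells, had 3.81, 8.78 and 15.9 FPKM and a slope of 1.57 (SE 0.21, adjusted p = 0.0164). Olfm4 (olfactomedin 4), a secreted glycoprotein, and Timd2, a member of the same TIM family as Havcr1, had slopes of 1.16 and 0.89. The sequence kinship of Timd2 and Havcr1 means that reads of the pair could be shared, depending on the counting. Of 15 complement genes 4 rose, among them the regulatory protease Cfi (slope 0.78, SE 0.14). Ifih1, a sensor of viral RNA, had 1.25, 3.35 and 5.35 FPKM and a slope of 1.35 (SE 0.23, adjusted p = 0.0164). Of 43 matrix genes, 2 rose (Dcn and Col8a1), which is near the 5.81% of all genes. Their median r was 0.46 against 0.27 for all genes.

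Of the 20 listed proximal tubule genes 1 rose with Havcr1 and none fell, with a median r of 0.018 against 0.27 for all genes. None of 5 straight tubule genes was called (median r 0.015). Of all tested genes 5.81% rose and 0.0797% fell, so a list of this size was unlikely to hold a gene that fell. The 10 genes that fell as Havcr1 rose were on no list, and some are known products of the proximal tubule. Slc34a3, a second phosphate cotransporter of the brush border, had 25.1, 39.1 and 45.0 FPKM and a slope of -0.62 (SE 0.14, adjusted p = 0.0272). Slc5a11, an inositol cotransporter, had a slope of -0.56 (SE 0.14, adjusted p = 0.0318), and Gstz1, an enzyme of tyrosine breakdown, had 35.7, 49.5 and 57.3 FPKM and a slope of -0.62 (SE 0.13, adjusted p = 0.0215). Without animal 1007, 44 genes were called with Havcr1, without 1004 147, without 1003 384, and after median-of-ratios scaling limma called none, with 2537 at an unadjusted p under 0.05. With Clu in place of Havcr1, 597 genes rose (4.76%) and 267 fell (2.13%). The 16 macrophage genes then had 12 members that rose (median r 0.83), and the matrix list had 18 of 43.

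With Ptprc, 1010 genes rose (8.05%) and 29 fell (0.231%). Of the 24 tested injury genes 6 rose, with a median r of 0.53. Cp had a slope of 0.98 (SE 0.10, adjusted p = 0.00145) and Anxa1 a slope of 1.20 (SE 0.13, adjusted p = 0.00145). Of 15 complement genes 6 rose, with a median r of 0.68 against 0.27 for all genes. C1r, a protease of C1, had 83.9, 115 and 163 FPKM and a slope of 0.80 (SE 0.16, adjusted p = 0.0155).

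Of 16 macrophage genes 4 rose with Ptprc, with a median r of 0.55, among them Lyz2 (slope 1.15, SE 0.19, adjusted p = 0.0106) and the mannose receptor Mrc1 (slope 0.99, SE 0.24, adjusted p = 0.0261). Of 13 T and NK cell genes 1 rose, which is near the 8.05% of all genes, with a median r of 0.42 against 0.27 for all genes. It was Cd3g, a chain of the T cell receptor complex, which had 4.43, 6.11 and 9.97 FPKM and a slope of 0.90 (SE 0.22, adjusted p = 0.0283). Jchain had the steepest slope of the lymphocyte genes named here at 1.95 (SE 0.28, adjusted p = 0.00681). Of the matrix list, 5 of 43 rose, where 8.05% of all genes rose, with a median r of 0.46. They included Dcn (decorin, a collagen-binding proteoglycan), with 55.2, 139 and 205 FPKM and a slope of 1.45 (SE 0.22, adjusted p = 0.00700). Col8a1 had a slope of 1.10 (SE 0.20). The interferon-induced GTPase Gbp2 had a slope of 0.89 (SE 0.17, adjusted p = 0.0146).

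Genes that fell as Ptprc rose included Gstz1 (slope -0.64, SE 0.15, adjusted p = 0.0220), Ndufa11, a subunit of complex I (slope -0.45, SE 0.11, adjusted p = 0.0249), and Slc6a18 (slope -0.57, SE 0.16, adjusted p = 0.0436). Few members of the tubular and nuclear encoded respiratory chain lists fell. Of 20 proximal tubule genes 3 rose and 1 fell, with a median r of -0.018 against 0.27 for all genes. Of 10 thick ascending limb genes 2 rose and none fell. None of 26 listed nuclear encoded subunits of the respiratory chain was called (median r -0.020). Of 13 mitochondrially encoded transcripts 1 fell as Ptprc rose, with a median r of -0.64. With Havcr1 and Col1a1 none of the 13 was called, and their median r was -0.60 and -0.58. Animal 1004, lowest in Havcr1 and Ptprc, had the highest mitochondrial share. Without animal 1004, 528 genes (4.21%) were called with Ptprc, among them 16 of 43 matrix genes, 7 of 16 macrophage genes and 3 of 13 T and NK cell genes. Without 1003 357 were called. After median-of-ratios scaling 156 rose and 33 fell. With Laptm5 in place of Ptprc, 189 genes rose (1.51%) and 103 fell (0.821%), and 5 of 15 macrophage genes were among those that rose.

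Proximal tubule transport and glucose synthesis moved with Slc34a1. With it, 122 genes rose (0.973%) and 74 fell (0.590%). Of 20 proximal tubule genes 5 rose and none fell, with a median r of 0.69 against -0.23 for all genes. Slc22a6, an organ anion transporter, had 191, 294 and 329 FPKM in the lowest, median and highest animal and a slope of 0.86 (SE 0.12, adjusted p = 0.00680). Its relative Slc22a8 had 229, 361 and 403 FPKM (slope 0.99, adjusted p = 0.0158). Amn (amnionless), which carries the receptor cubilin to the surface, had a slope of 0.84 (SE 0.14, adjusted p = 0.0163). Of 6 genes of gluconeogenesis, 4 rose, with a median r of 0.85. They were Pck1 (slope 1.54, SE 0.33, adjusted p = 0.0358), Pc (pyruvate carboxylase, slope 1.05), Fbp1 (fructose bisphosphatase, slope 0.77) and Slc37a4, which carries glucose 6-phosphate to its phosphatase (slope 0.74).

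The closest genes to Slc34a1 were metabolic enzymes on no list. Dio1, the deiodinase that activates thyroid hormone, had 57.3, 106 and 124 FPKM and a slope of 1.32 (SE 0.16, adjusted p = 0.00450). Khk (ketohexokinase), which starts fructose breakdown, had 120, 212 and 262 FPKM and a slope of 1.17 (SE 0.15, adjusted p = 0.00520). Haao, an enzyme of tryptophan breakdown, had 116, 216 and 231 FPKM and a slope of 1.09 (SE 0.13, adjusted p = 0.00405). The lowest animal stood well under the median in each of these 3 genes, as it did in Slc34a1.

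Of the 24 injury genes, 5 fell as Slc34a1 rose and none rose, with a median r of -0.61. Lcn2 had a slope of -1.43 (SE 0.29, adjusted p = 0.0281). Krt19 and Krt18, keratins of simple epithelia, had slopes of -1.42 (SE 0.29) and -0.92 (SE 0.18), with 41.2, 55.8 and 111 FPKM for Krt19. Lgals3 (galectin-3), a sugar-binding protein of macrophages and injured tubules, had a slope of -1.05 (SE 0.21, adjusted p = 0.0267). Of 18 interferon genes 4 fell, including the transcription factors Irf7 (slope -0.91, SE 0.19) and Irf1 (slope -0.78, SE 0.17). Slc34a2, the phosphate cotransporter best known from lung and gut, had 67.9, 82.4 and 135 FPKM and went against its relative with a slope of -1.06 (SE 0.16, adjusted p = 0.0115). The sterol exporter Abcg1 also fell (slope -0.91, SE 0.15, adjusted p = 0.0142).

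No gene was called by limma with Slc34a1 without animal 1003 (1812 genes had an unadjusted p under 0.05) or with the mean of the inner medulla markers as a covariate (1627). Without 1004, 697 were called. Then 13 of 24 injury genes, 8 of 18 interferon genes and 7 of 16 macrophage genes fell as Slc34a1 rose, where 3.01% of all genes fell. Median-of-ratios scaling gave 402 that rose (3.20%) and 44 that fell (0.351%), and leaving out mitochondrial transcripts gave 155 and 58. After median-of-ratios scaling 9 of 20 proximal tubule genes rose and no injury gene was called. Without 1003 the median r with Slc34a1 was 0.58 for the proximal tubule list and -0.23 for the injury list, against -0.61 over all animals.

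Genes of fatty acid oxidation and of the citric acid cycle rose with Sdha. With it, 1340 genes rose (10.7%) and 241 fell (1.92%). Of 20 genes of fatty acid oxidation, 19 rose, with a median r of 0.89 against 0.13 for all genes, and of 14 genes of the citric acid cycle and pyruvate oxidation 12 rose, with a median r of 0.92. Acadm had a slope of 1.29 (SE 0.13, adjusted p = 0.000176). Ehhadh, the bifunctional enzyme of peroxisomal oxidation, had 33.9, 68.5 and 93.2 FPKM and a slope of 1.57 (SE 0.18, adjusted p = 0.000297). Hadh and Hadhb, which carry out the last steps of the mitochondrial cycle, had slopes of 0.99 and 0.95. In the citric acid cycle, Suclg2, a subunit of succinyl-CoA ligase, had 114, 157 and 210 FPKM and a slope of 0.88 (SE 0.12, adjusted p = 0.00071). Its companion subunit Sucla2 had a slope of 0.85, and Pdhb, of pyruvate dehydrogenase, had a slope of 0.95.

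The genes not called in these lists were few. In fatty acid oxidation it was Cpt1a, which admits fatty acids to the mitochondrion (slope 0.33, SE 0.16, adjusted p = 0.189). In the citric acid cycle they were Cs (slope 0.05, SE 0.16, adjusted p = 0.860) and Idh3g (slope 0.45, SE 0.15, adjusted p = 0.0601).

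Of 26 tested nuclear encoded subunits of the respiratory chain, 10 rose with Sdha and none fell, with a median r of 0.64. Sdhd, which anchors succinate dehydrogenase in the membrane, had 102, 164 and 199 FPKM and a slope of 1.00 (SE 0.13, adjusted p = 0.000648). Uqcrfs1 and Uqcrc2 of complex III had slopes of 0.91 (SE 0.12) and 0.99 (SE 0.14), and Ndufs1 of complex I had a slope of 0.94 (SE 0.13). Among the 16 not called, Cox4i1 of complex IV, with 759, 840 and 997 FPKM, had a slope of -0.24 (SE 0.16, adjusted p = 0.348), and Atp5po of the ATP synthase had a slope of -0.21 (SE 0.17, adjusted p = 0.455).

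Of 13 mitochondrially encoded transcripts 2 fell as Sdha rose and none rose, with a median r of -0.58. Mt-nd1, a complex I subunit, had 9547, 15187 and 34329 FPKM in the lowest, median and highest animal and a slope of -1.54 (SE 0.46, adjusted p = 0.0410). Mt-atp8 of the ATP synthase had 2077, 4187 and 8514 FPKM and a slope of -1.77 (SE 0.44, adjusted p = 0.0195). These slopes leaned on animal 1004, which had the highest mitochondrial share and the lowest Sdha: without it neither was called (adjusted p = 0.478 and 0.225), and after median-of-ratios scaling without it the slope of Mt-nd1 was 0.016.

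Of 12 metabolic transcription factors 6 rose with Sdha. Ppargc1a (PGC-1 alpha), the coactivator that drives mitochondrial biogenesis, had 3.26, 7.78 and 8.4 FPKM and a slope of 1.31 (SE 0.32, adjusted p = 0.0177), and its partner Esrra had 22.7, 29.8 and 38.2 FPKM and a slope of 0.85 (SE 0.17, adjusted p = 0.00593). Without 1004 neither passed (adjusted p = 0.384 and 0.0610). Of tubular genes, 7 of 20 proximal tubule members rose. Slc5a8, a transporter of lactate and short-chain fatty acids, had 3.51, 16.1 and 20.7 FPKM and the steepest slope named here at 3.11 (SE 0.38, adjusted p = 0.000435). Gatm, of creatine synthesis, had a slope of 1.30 (SE 0.18). In the thick ascending limb 5 of 10 rose and 1 fell. Umod had a slope of 1.58 (SE 0.23, adjusted p = 0.00101), Egf had a slope of 1.81 (SE 0.31, adjusted p = 0.00220), and the tight junction gene Cldn19 had a slope of -1.08 (SE 0.19, adjusted p = 0.00221).

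Off the lists, Oxct1, the enzyme that lets cells burn ketone bodies, had 48.4, 80.3 and 122 FPKM and a slope of 1.47 on Sdha (SE 0.14, adjusted p = 0.000159). Hibadh, of valine breakdown, had 56.5, 103 and 140 FPKM and a slope of 1.44 (SE 0.15, adjusted p = 0.000176). Among genes that fell as Sdha rose were the ribosomal proteins Rps28 (slope -1.13, SE 0.15) and Rpl28 (slope -0.88, SE 0.13). Timp1, an inhibitor of matrix proteases, had 46.0, 67.4 and 96.0 FPKM and a slope of -1.23 (SE 0.20, adjusted p = 0.00161), and Lcn2 had a slope of -1.58 (SE 0.29, adjusted p = 0.00321). Of 16 macrophage genes 2 fell, and 9 fell after median-of-ratios scaling. Of 43 matrix genes 1 fell, and 11 after that scaling. Of all tested genes 1.92% fell, and 6.42% after that scaling, so 1 of 43 matrix genes is near the share of all genes.

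**Figure D4:**
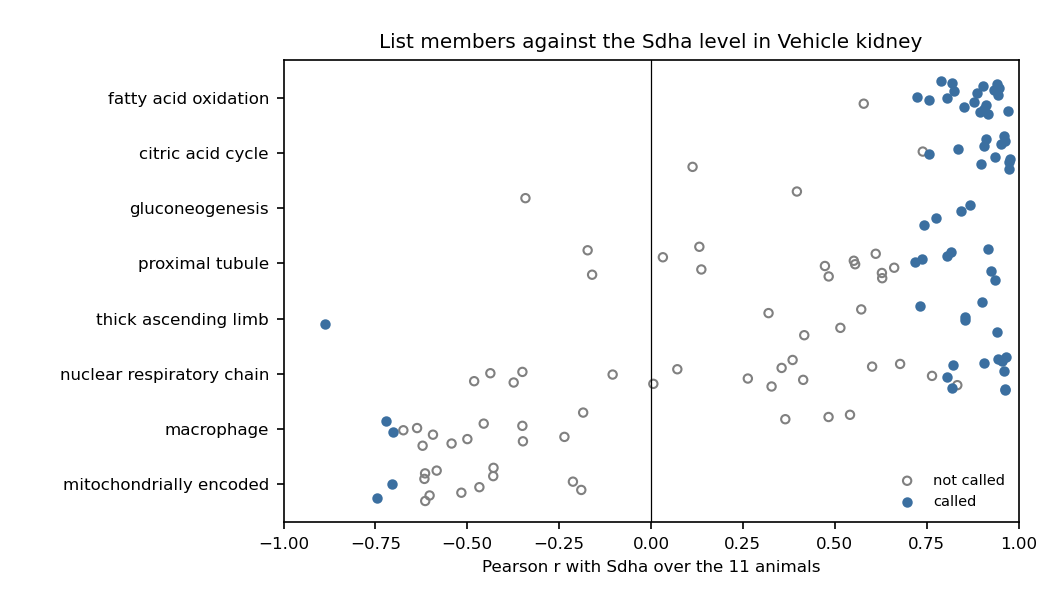
Pearson's r with Sdha over the 11 animals (horizontal axis) of each tested member of 8 lists (rows), filled where the gene was called at an adjusted p under 0.05. Fatty acid oxidation and citric acid cycle genes lie near the right edge (median r 0.89 and 0.92), and mitochondrially encoded genes lie left of 0 (median r -0.58).

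The Sdha fit held without 1003 and was weaker without 1004. Of the 80 genes the naming rule covers for Sdha, 79 kept their call without 1003, 48 without 1004 and 41 without both. Of the 20 fatty acid oxidation genes, 12 rose without 1004, 19 without 1003 and 9 without both. Of the 14 citric acid cycle genes, 10 rose without 1004, 12 without 1003 and 7 without both. Of all tested genes 2.89% rose without 1004, 16.9% without 1003 and 1.98% without both. In total 437 genes were called without 1004 and 2380 without 1003. After median-of-ratios scaling 1209 rose and 806 fell, and without mitochondrial transcripts 697 rose and 495 fell. The fit did not carry over to the other mitochondrial gene chosen: with Cs as the anchor limma called no gene (868 had an unadjusted p under 0.05), and the median r was 0.06 for fatty acid oxidation and 0.06 for the citric acid cycle, against 0.21 for all genes. Of these 2 anchors Cs had the smaller SD between animals, 0.11 on the log2 scale against 0.24 for Sdha.

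**Figure D5:**
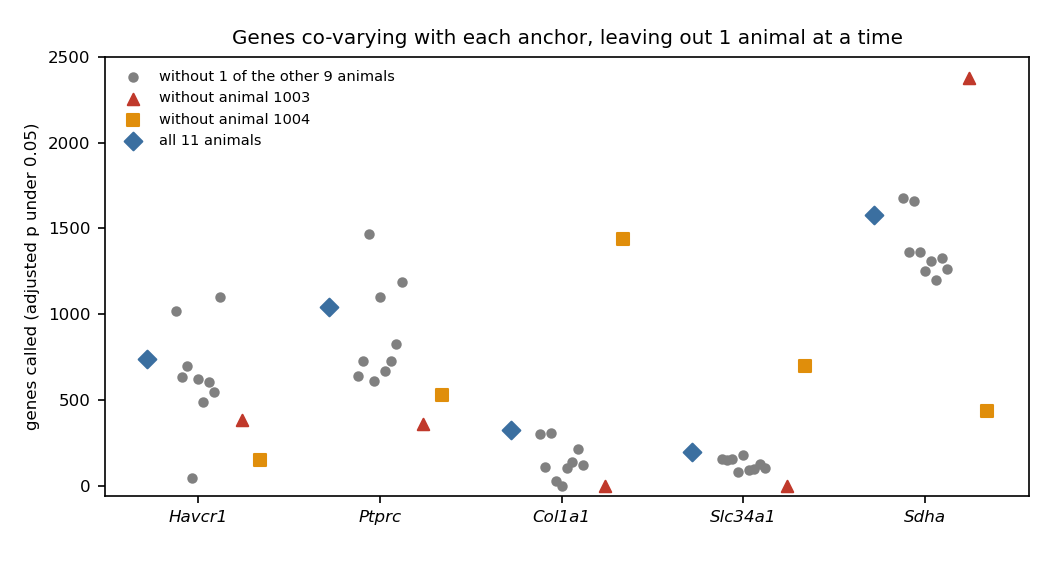
Number of genes called with each anchor gene (vertical axis) in all 11 animals (diamonds), without animal 1003 (triangles), without animal 1004 (squares) and without each of the other 9 animals (circles). The Col1a1 count lies between 0 and 1441 and the Sdha count between 437 and 2380.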

How the data were processed

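Kidney mRNA of the 11 Vehicle animals was analysed, 1 library per animal. The deposited values are FPKM that the authors computed on build rn6. The software that aligned and counted the reads is not given in the sources used here. Of 32883 entries, 28906 symbols are distinct, 295 of which stand on more than 1 entry, and the entry of highest mean stood for a listed gene. The file holds 2 empty columns. The other 33 animals were not used, and the values carry no read totals, so the depth each library reached is unknown beyond the nominal output in the study's methods. Relative depth, read from low values, ran from 0.706 to 1.42.

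The 12541 genes that exceeded an FPKM of 1 in 9 or more animals were fitted on the log2(FPKM + 0.1) scale against each anchor gene with limma 3.58.1 (trend) in R 4.3.3, two-sided, with Benjamini-Hochberg adjustment over all genes. No count model was used. Anchor pairs were tested in Python 3.11.15 with scipy 1.17.1, by permutation with 100000 resamples. The median r of a list describes it without a test. The fits were checked on simulated data with known slopes, in which the genes varied independently of each other. In the kidneys many genes moved together, so that check cannot speak to calls that arise from shared variation between animals.

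The members, anchors and lists were chosen with earlier results of these data known. Genes named were listed genes, the 15 of largest spread and 20 of highest level, up to 8 called genes in each direction per anchor by t, and up to 4 called and 2 not called per list. Some genes that this rule would name are left out of the text. Hp and the ribosomal protein count were chosen after values were seen. The settings varied were the pseudocount (1 and 0.01), the filter (none, or 5 FPKM), median-of-ratios scaling, removal of mitochondrial transcripts, an inner medulla covariate, a second anchor gene, and leaving out each animal. Combinations of settings with animals 1003 or 1004 left out were added after the data were seen.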

Additional observations from a re-analysis of the deposited data

How the results depend on the processing

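No paired analysis was possible because only 1 group was studied. Genes called with Havcr1 (738 in all) numbered 383 with no filter, 0 after median-of-ratios scaling with and without 1004, 0 without mitochondrial transcripts, 1399 with the inner medulla covariate (0 without 1004) and 0 without 1003 and 1004. With Col1a1 (324) they numbered 161 with no filter, 0 after scaling (654 without 1004), 214 without mitochondrial transcripts, 0 with the covariate and without 1004, and 0 without both animals. With Ptprc (1039) they numbered 633, 189 after scaling (0 without 1004), 13 without mitochondrial transcripts, 1735 with the covariate (0 without 1004), 292 with Laptm5 and 0 without both animals. With Slc34a1 (196) they numbered 92, 446 after scaling (973 without 1004), 0 with the covariate (349 without 1004) and 0 without both animals. With Sdha (1581) they numbered 1022, 922 with the covariate (925 without 1004), 0 with Cs and 283 without both animals. Leaving out each animal gave 44 to 1103 genes for Havcr1, 0 to 1441 for Col1a1, 357 to 1466 for Ptprc, 0 to 697 for Slc34a1 and 437 to 2380 for Sdha. Of 10 anchor pairs, 1 passed; 2 passed after scaling and 2 without mitochondrial transcripts, 5 with the covariate, 4 with the second genes, 0 without the 2 farthest animals, 0 without both animals and 8 after scaling without 1004; leaving out each animal gave 0 to 6. The cause of these differences was not tested.

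With the second gene as anchor, the slope turned for 48 of the 80 genes the naming rule covers for Sdha, 15 of 54 for Ptprc, 6 of 45 for Havcr1, and none of 39 for Col1a1 or of 38 for Slc34a1. The r of Havcr1 with Sdha was -0.066 without the 2 farthest animals and without both, -0.33 without 1004, -0.70 after scaling without 1004 and -0.47 with the covariate without 1004. That of Ptprc with Sdha was -0.022 without mitochondrial transcripts, -0.38 without the 2 farthest, -0.15 without both, -0.34 to 0.425 leaving out each animal (lowest without 1004), -0.70 after scaling without 1004 and -0.47 with the covariate without 1004. That of Col1a1 with Sdha was 0.39 with the second genes and 0.12 without the 2 farthest. Among genes named in the text, slopes turned for Fgb (-0.041 on Clu), Ndufa11 (0.013 on Laptm5) and Dcn (-0.19 on Laptm5). On Cs they turned for Oxct1 -0.031, Hibadh -0.41, Acadm -0.22, Ehhadh -0.21, Hadh -0.14, Hadhb -0.14, Sdhd -0.10, Uqcrfs1 -0.094, Ndufs1 -0.056, Uqcrc2 -0.10, Rps28 0.089, Cldn19 0.30, Lcn2 0.18 and Timp1 0.51. Mt-nd1 had a slope of 0.016 on Sdha after scaling without 1004. The number of animals and the unknown depth limit the precision.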

Other observations

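Genes that respond to the time of day and to handling of tissue differed between animals more than most. Of 13 tested clock genes, 8 had an SD in the upper quartile of all tested genes. Nr1d1 (REV-ERB alpha), a repressor of the clock loop, had 9.84, 16.5 and 40.3 FPKM in the lowest, median and highest animal, Per3 had 2.19, 4.39 and 14.0 FPKM, and Arntl (BMAL1), which peaks opposite to them, had 5.13, 10.2 and 13.9 FPKM. Of 14 tested immediate early genes, 13 did. Fos had 10.7, 19.5 and 45.7 FPKM and Nr4a1 had 4.98, 9.92 and 20.3 FPKM. The hour at which each kidney was taken is not in the labels.

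Genes of cell division were low, with a summed level of 69.1 to 122 FPKM over 16 genes. Birc5 (survivin), an inhibitor of apoptosis needed for chromosome separation, ran from 1.20 to 6.19 FPKM. The 14 tested genes had a median r of 0.73 with Col1a1 and of -0.70 with Slc34a1, with 1 called in each fit.

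Ribosomal protein genes, found by symbol after values were seen, numbered 74 among the tested genes. Of these, 19 fell as Sdha rose and none rose, where 1.92% of all genes fell. The count that fell was 18 after median-of-ratios scaling, 18 without animal 1004 and 19 without animal 1003. The share of all tested genes that fell in these settings was 6.42%, 0.598% and 2.08%.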
